A study of Mus musculus with 12 samples.

Results

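Messenger RNA of 7 GABA receptor subunits was measured along the mouse cochlea, from the apex, where low frequencies are heard, to the base, where high frequencies are heard. The genes were the GABA-A receptor subunits Gabra2, Gabra3, Gabra5, Gabrb1 and Gabrb2 and the GABA-B receptor subunits Gabbr1 and Gabbr2. They were taken by name, as every non-control probe of the exon arrays whose gene name equals 1 of these symbols, which gave 85 of 165865 probes and 7 of 19505 genes. The arrays were single-color Agilent exon microarrays, on which most genes carry several 60-base probes in different exons.

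The study asked how gene expression differs between the cochlear turns. There were 12 arrays, 4 for the apical turn, 4 for the middle turn and 4 for the basal turn, all from male C57BL/6 mice aged 6 weeks, with 25 ng of total RNA labeled per array. Each sample was a whole dissected turn: the organ of Corti, the lateral wall with its stria vascularis, ligament and prominence and, by the study's methods, also the neurons of the spiral ganglion. The labels number the samples 1 to 4 in each turn and give 4 mice, but do not say that the same number is the same mouse, so the p-values measure the spread between these samples.

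GABA is an inhibitory transmitter of the brain and is also found in the efferent nerve fibers that run from the brainstem to the cochlea. GABA-A receptors are chloride channels built of several subunits drawn from a number of families, most often alpha, beta and gamma subunits, and they act fast. GABA-B receptors are G protein-coupled receptors made of a Gabbr1 and a Gabbr2 subunit. Gabbr1 binds GABA, Gabbr2 couples to the G protein and brings the pair to the cell surface, and the receptor acts slowly through potassium and calcium channels.

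The probes that the results turn on are shown here as deposited, 5′ to 3′, with their positions on the mouse genome build mm9. They were chosen after their values were seen, apart from the probe of highest mean signal of each gene, which was named by rule. The first set covers the same stretch of the extracellular part of 3 alpha subunits, and capitals mark the 41 of 60 bases that all 3 share. Gabra2 was above background there on 12 arrays, Gabra3 on 4 and Gabra5 on 0.
Gabra2 probe 3, chr5:71425969-71426028, minus strand: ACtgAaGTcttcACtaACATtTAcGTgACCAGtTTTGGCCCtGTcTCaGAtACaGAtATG
Gabra3 probe 3, chrX:69756644-69756703, minus strand: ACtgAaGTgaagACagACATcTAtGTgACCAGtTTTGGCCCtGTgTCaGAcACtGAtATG
Gabra5 probe 3, chr7:64744497-64744556, minus strand: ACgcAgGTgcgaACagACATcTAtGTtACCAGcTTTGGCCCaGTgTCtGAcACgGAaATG

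The second set holds the transmembrane probes of the 2 beta subunits, with capitals at the 46 of 56 aligned bases they share. They were above background on 10 and 12 arrays and can be compared base by base.
Gabrb1 probe 7, chr5:72500000-72500059, plus strand: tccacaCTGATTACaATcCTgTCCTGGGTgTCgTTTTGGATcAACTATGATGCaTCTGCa
Gabrb2 probe 7, chr11:42407380-42407439, plus strand: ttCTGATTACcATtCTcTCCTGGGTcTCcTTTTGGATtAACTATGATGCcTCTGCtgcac

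The third set is a pair of transmembrane probes from the same part of both GABA-B subunits, with capitals at the 38 of 60 bases they share. Here Gabbr2 was called between apex and base and Gabbr1 was not.
Gabbr1 probe 19, chr17:37208867-37208926, plus strand: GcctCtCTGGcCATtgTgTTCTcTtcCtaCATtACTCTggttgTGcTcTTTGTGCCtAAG
Gabbr2 probe 15, chr4:46693976-46694035, minus strand: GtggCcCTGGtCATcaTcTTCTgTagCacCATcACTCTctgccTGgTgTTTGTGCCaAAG

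The last 3 are probes that read unlike most others of their gene. Capitals in the Gabra3 probe mark the 20 of 23 aligned bases it shares with Gabra2 probe 7. The others are printed in lower case, with no shared bases marked. A shorter minimum overlap was allowed for that pair than for the others. Gabra3 probe 7 also shares 45 of 59 aligned bases, not marked, with Gabra5 probe 7, which was above background on 0 arrays. Gabra5 probe 8 shares 38 of 47 aligned bases with Gabra3 probe 8 and 37 of 46 with Gabra2 probe 8. Both of those related probes were above background on 0 arrays. Gabbr2 probe 1 was compared with no other probe.
Gabra3 probe 7, chrX:69696844-69696903, minus strand: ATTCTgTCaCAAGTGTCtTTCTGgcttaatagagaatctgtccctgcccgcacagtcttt
Gabra5 probe 8, chr7:64668979-64669038, minus strand: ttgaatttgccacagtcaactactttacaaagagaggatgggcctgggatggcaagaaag
Gabbr2 probe 1, chr4:47003980-47004039, minus strand: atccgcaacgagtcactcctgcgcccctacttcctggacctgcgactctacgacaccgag

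Signal is given below as fluorescence scaled to the 75th percentile of each array, and the signal of a gene is the mean over its probes on the log2 scale, put back on the linear scale. Differences are log2 differences between turn means from limma, fitted over all 12 arrays, and a gene or probe is called when its p, adjusted by the Benjamini-Hochberg method over all genes or all probes, is under 0.05. Before scaling, this percentile ran from 534.6 to 722.1, and 77.4% to 81.4% of spots were well above background. Each turn had its own slide and scan, so that turn and slide cannot be told apart in any comparison here. In a bulk sample, fewer cells of a type and less RNA per cell cannot be told apart either.

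Between the apical and basal turns, 3 of the 7 genes were called, all higher at the apex: Gabbr2, Gabrb1 and Gabra3. Over all genes, 39.2% were called in this comparison in either direction, which is near the share of the 7. As higher at the apex alone, 17.6% of all genes were called, a smaller share than 3 of 7. The 7 genes were chosen with earlier results of these data known, and this gap was not tested. The median log2 difference was 0.09 over the 7 genes and -0.04 over all genes. Between the apical and middle turns 0 of 7 were called with limma, against 12% of all genes, although 2 had an unadjusted p under 0.05 (Gabra3 and Gabra5). The study's own test over the 3 turns with a 2-fold threshold also gave 0. Between the middle and basal turns 1 of 7 was called, Gabbr2, against 20.9% of all genes. By the rule closest to the study's own, limma's F test over the 3 turns with a 2-fold difference, Gabbr2 alone passed between apex and base, where 4.39% of all genes did (3.27% as higher at the apex), and between middle and base, where 2.66% did (2.2% as higher in the middle turn). Only Gabbr2 and Gabra3 had no overlap between the 4 apical and the 4 basal arrays, a pattern that 38.3% of all genes show in either direction.

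**Figure D1:**
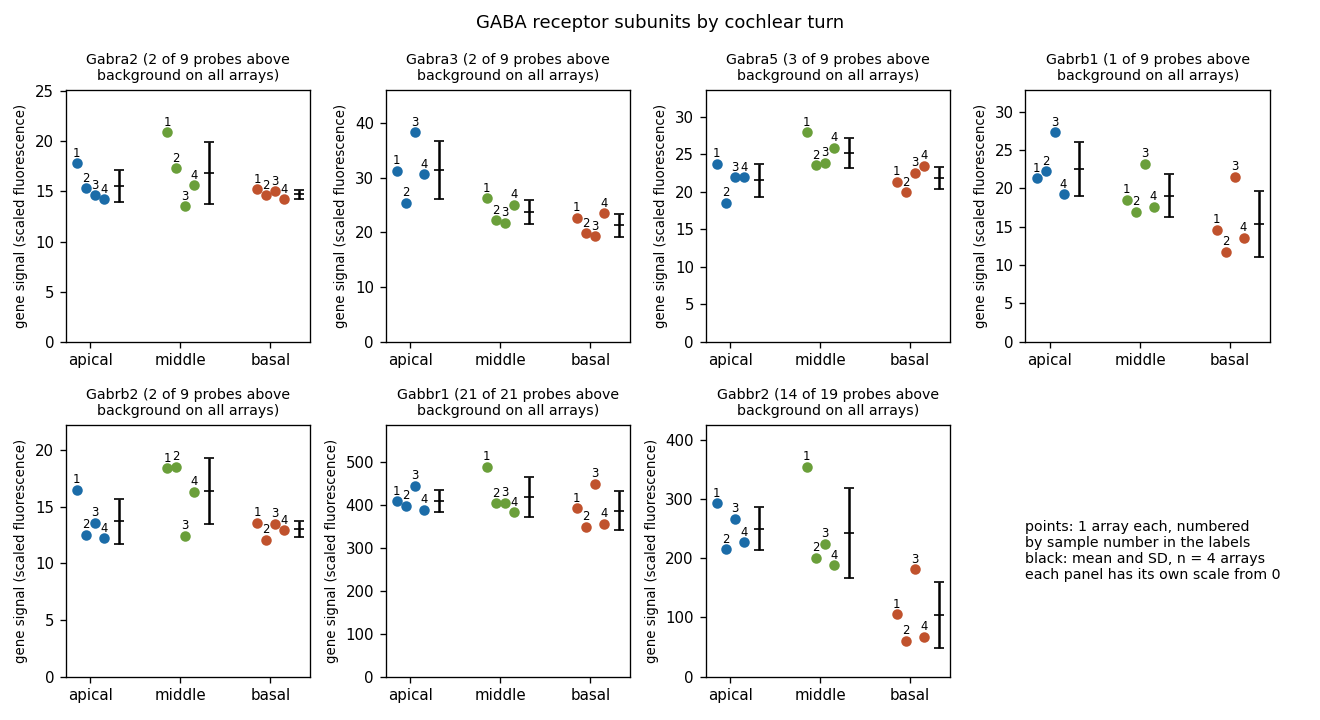
Signal of each gene (scaled fluorescence, each panel from 0) on the 4 arrays of each turn. Points are single arrays with their sample number, and the black mark gives the mean and SD (n = 4). Gabbr2 falls at the base, to 104 from 250 at the apex, with basal sample 3 at 181 nearest to the other turns, while Gabbr1 overlaps in all 3 turns.

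Gabbr2, the G protein-coupling subunit of the GABA-B receptor, had the largest difference of the 7 genes. Its signal was 293, 215, 266 and 227 on apical arrays 1 to 4, and 354, 201, 224 and 188 on middle arrays 1 to 4. It was 105, 60.7, 181 and 67.6 on basal arrays 1 to 4. All 8 apical and middle arrays were above all 4 basal arrays, the closest being middle sample 4 at 188 and basal sample 3 at 181. The means were 250 ± 36 (SD, n = 4) at the apex, 242 ± 76 for the middle turn and 104 ± 55 at the base. The log2 difference was 1.40 between apex and base (95% confidence interval 0.71 to 2.1, 2.64-fold, limma adjusted p = 0.0045) and 1.32 between middle and base (0.62 to 2.01, 2.49-fold, adjusted p = 0.014). Apex and middle turn were not told apart, with a difference of 0.09 and an interval from -0.61 to 0.78 (adjusted p = 0.88). Without basal sample 3 the difference between apex and base was 1.72 (limma adjusted p = 0.00035).

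Gabbr1, its GABA-binding partner, was called in no comparison. Its signal was 409, 398, 445 and 389 at the apex, 489, 404, 405 and 383 for the middle turn, and 393, 349, 450 and 356 at the base, and the 3 turns overlapped. The difference between apex and base was 0.09 with an interval from -0.12 to 0.3 (limma adjusted p = 0.52), so a fold change as large as the 2.64-fold of Gabbr2 lies outside it. The intervals were -0.24 to 0.18 for apex against middle turn (adjusted p = 0.87) and -0.09 to 0.33 for middle turn against base (adjusted p = 0.39). The difference between the 2 genes was not itself tested. With scaling to the spike-in probes the Gabbr1 difference between apex and base was -0.40 (adjusted p = 0.0095), which is 0.13 above the median of all genes under that scaling.

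The probes allow the GABA-B genes to be read exon by exon. Of the 19 Gabbr2 probes, 18 were called as higher at the apex than at the base and 16 as higher in the middle turn than at the base, where 18% and 7.76% of all probes were. In either direction, 34.4% of all probes were called between apex and base. With limma, 0 of 21 Gabbr1 probes were called in either comparison, and 0 and 1 had an unadjusted p under 0.05. All 21 Gabbr1 probes were above background on all 12 arrays, and so were 14 of the 19 Gabbr2 probes. The other 5 Gabbr2 probes (2, 5, 8, 12 and 18) were above background on all 8 apical and middle arrays but on only 1 to 3 basal arrays. Between apex and middle turn, 0 of the 85 probes of the 7 genes were called with limma. Of all probes, 3.04% were called there as higher at the apex and 2.86% as higher in the middle turn. An unadjusted p under 0.05 was reached by 10 of the 85, and the share of all probes that reach it was not counted.

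The Gabbr2 differences between apex and base ran from 0.07 to 2.06 with a median of 1.48. The exception was probe 1, in the first of the probed exons, whose sequence is printed above. Its mean was 628 ± 25 at the apex, 627 ± 42 for the middle turn and 597 ± 24 at the base (SD, n = 4), a difference of 0.07 between apex and base (limma adjusted p = 0.44). Probe 2, the next along the transcript, had the largest difference of the 19. It read 135, 89.7, 112 and 85.7 at the apex and 40.4, 9.97, 78.1 and 12.3 at the base, a difference of 2.06 (SE 0.62, adjusted p = 0.024). Probe 15, the transmembrane probe shown above, had a smaller difference than most, 0.66 (SE 0.2, adjusted p = 0.024), with means of 1380 ± 190, 1230 ± 230 and 890 ± 210. The Gabbr1 probe from the same part of the receptor, probe 19, had means of 976 ± 68, 1040 ± 130 and 987 ± 76.

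**Figure D2:**
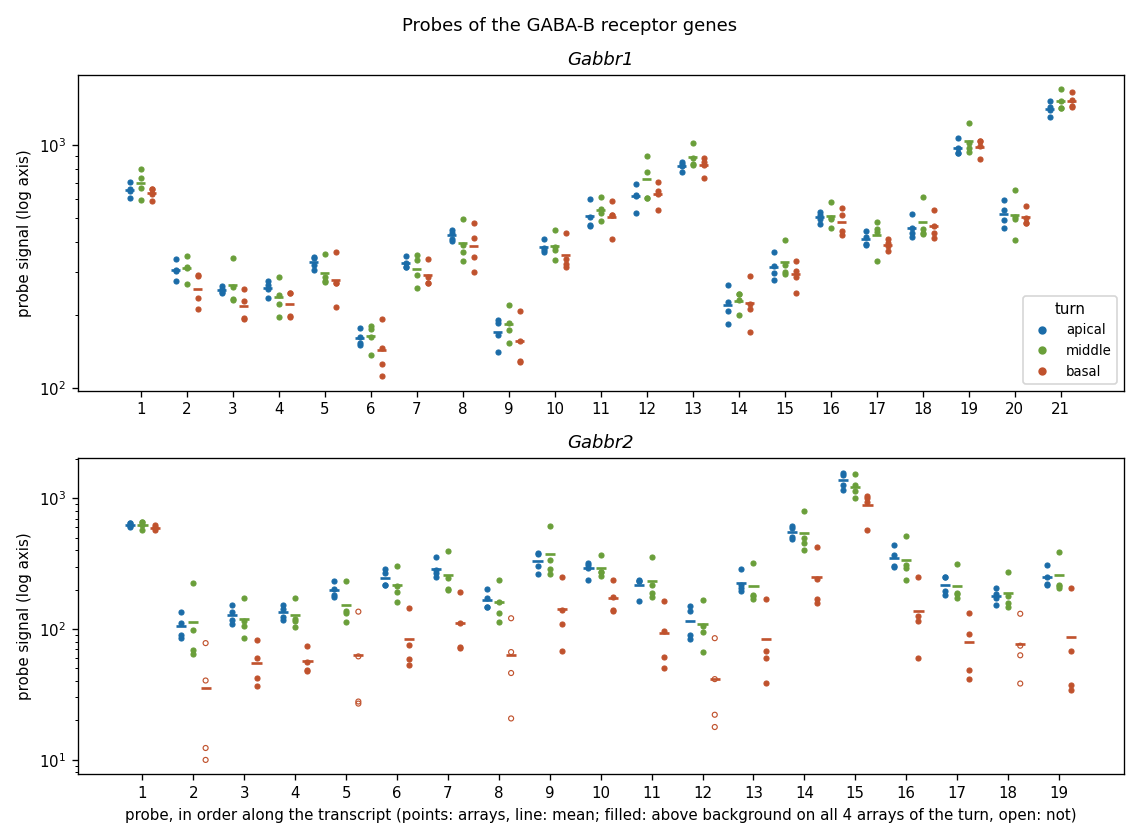
Signal of each probe of Gabbr1 (21 probes) and Gabbr2 (19 probes) in order along the transcript, on a log axis. Points are arrays colored by turn, lines are means (n = 4), and open points mark turns where the probe was not above background on all 4 arrays. The basal mean of Gabbr2 lies clearly below the others for every probe but probe 1 and, less so, probe 15, and the turns overlap for Gabbr1.

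The GABA-A subunits were dim. Of the 45 probes of Gabra2, Gabra3, Gabra5, Gabrb1 and Gabrb2, 10 were well above background on all 12 arrays and 28 on no array. Over the whole array, 73.4% of probes were above background on all 12 arrays and 14.3% on none. The median GC content was 45% in both sets of probes, the 10 and the 28. Since a probe not above background gives only a bound, the gene means of these 5 subunits are averages over a few bright probes and many dim ones.

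Gabra3, an alpha subunit whose gene lies on the X chromosome, read 31.2, 25.4, 38.3 and 30.6 at the apex and 22.7, 19.8, 19.3 and 23.5 at the base, with no overlap. The middle turn read 26.2, 22.2, 21.7 and 25 and overlapped both. The gene difference between apex and base was 0.55 (95% confidence interval 0.28 to 0.81, 1.46-fold, limma adjusted p = 0.0038), and that between apex and middle turn was 0.39 (adjusted p = 0.058). The call rested on dim probes. The 2 probes above background on all 12 arrays were not called: probe 7 had means of 7450 ± 830, 7560 ± 440 and 7560 ± 530 (log2 difference between apex and base -0.02, adjusted p = 0.86) and probe 5 had means of 95.7 ± 12, 94.5 ± 7.1 and 93.5 ± 14 (0.04, adjusted p = 0.84). With only probes well above background, which were these 2, the gene difference was 0.01 (adjusted p = 0.94). Probe 7 read far above every other Gabra3 probe, and whether its signal comes from Gabra3 was not tested. Of the other 7 probes, 6 were above background on no array, among them probe 4, the only Gabra3 probe called, and probe 3 was above background on 3 apical, 0 middle and 1 basal arrays.

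Gabrb1, a beta subunit, read 21.3, 22.2, 27.3 and 19.2 at the apex, 18.5, 16.9, 23.2 and 17.6 for the middle turn and 14.6, 11.7, 21.5 and 13.5 at the base. Apex and base overlapped only through basal sample 3, at 21.5. The difference between them was 0.58 (95% confidence interval 0.19 to 0.98, 1.5-fold, limma adjusted p = 0.024). It was not called without apical sample 3 (0.48, adjusted p = 0.07), basal sample 1 (0.57, 0.05 after rounding), basal sample 2 (0.46, 0.071) or basal sample 4 (0.53, 0.064), and was 0.76 (adjusted p = 0.0018) without basal sample 3. In all, it was not called in 9 of the 27 other settings, and limma's F test over the 3 turns gave an adjusted p of 0.06. Of its 9 probes, 5 were called as higher at the apex than at the base, where 18% of all probes were. Only probe 1 was above background on all 12 arrays, with means of 56.8 ± 6.1, 63.1 ± 8.4 and 43.1 ± 9.2 (0.41, adjusted p = 0.048). Probe 7, shown above among the beta subunits, was above background on 10 arrays, with means of 51.6 ± 0.39, 37.3 ± 5.9 and 39.1 ± 8. Probe 5 was above background on 3 apical, 1 middle and 0 basal arrays.

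The summed signal of central glia markers was highest on apical sample 3, which was also the highest apical sample for Gabra3 and Gabrb1. The sum over the 7 markers of astrocytes and oligodendrocytes was 1925 there, between 1025 and 1130 on the other apical arrays, between 784.6 and 947.5 in the middle turn and between 596.2 and 664.5 at the base. Gfap, of astrocytes, read 416 on apical sample 3 and 22 to 27.7 on the other apical arrays, and Olig1, of oligodendrocytes, 266 against 5.36 to 7.06, while Slc1a2 was highest on apical sample 4 (466, against 448 on sample 3). Of these 7 genes 4 had a probe above background on all 12 arrays. As higher at the apex than at the base 2 were called, Aqp4 and Slc1a2, against 17.6% of all genes. Aqp4 had means of 472 ± 59, 273 ± 24 and 126 ± 7.2, and Slc1a2 of 438 ± 35, 373 ± 21 and 321 ± 23. The other 5 were not called (limma adjusted p 0.24 to 0.91), with differences from -0.02 for Mog to 1.17 for Gfap. Mog had means of 129 ± 27, 138 ± 18 and 130 ± 5.7. The part of these 7 genes in the result was not tested. Over fits that lacked a single array, the Gabra3 difference stayed between 0.45 and 0.64.

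Gabra5, an alpha subunit found mostly outside synapses, read 23.7, 18.5, 21.9 and 21.9 at the apex, 27.9, 23.5, 23.8 and 25.8 for the middle turn, and 21.3, 19.9, 22.5 and 23.4 at the base. Every middle array was above every basal array, by 0.21 log2 units in the mean (95% confidence interval 0.02 to 0.4, limma adjusted p = 0.11), and 24.1% of all genes show such a separation in either direction. Apex and base differed by -0.02, with an interval from -0.21 to 0.17 (adjusted p = 0.86). Its 3 bright probes did not behave alike. Probe 5 was not called, with means of 389 ± 18, 383 ± 28 and 374 ± 24 (0.06 between apex and base, adjusted p = 0.59). Probe 8, printed above, was higher at the base: it read 269, 268, 260 and 276 at the apex, 255, 243, 303 and 343 for the middle turn and 500, 471, 487 and 560 at the base. The apical and middle arrays were all below the basal ones for this probe, with a log2 difference of -0.91 between apex and base (SE 0.1, 1.88-fold, adjusted p = 0.00013) and -0.83 between middle and base (adjusted p = 0.00093). No other of the 85 probes was called as higher at the base in either comparison, where 16.4% of all probes were against the apex and 6.02% against the middle turn. Probe 1 had means of 56.2 ± 5.3, 72.8 ± 9.7 and 66 ± 7.2 and was not called. Probe 6 was called as higher at the apex than the base but was above background on no array. With only probes well above background, the gene difference was -0.36 between apex and base (adjusted p = 0.00043) and -0.22 between middle turn and base (adjusted p = 0.017), which turns the sign of the comparison of middle turn and base.

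Gabra2, an alpha subunit, read 17.8, 15.3, 14.6 and 14.2 at the apex, 20.9, 17.3, 13.5 and 15.6 for the middle turn, and 15.2, 14.6, 15 and 14.2 at the base, and the 3 turns overlapped. The difference between apex and base was 0.06, with an interval from -0.19 to 0.32 (limma adjusted p = 0.73). Of its 2 probes above background on all arrays, probe 3 was not called, with means of 99.2 ± 4.5 at the apex and 110 ± 17 at the base (-0.14, adjusted p = 0.33). Probe 7 was called as higher at the apex, with means of 95.7 ± 11, 95.8 ± 24 and 63.7 ± 7.7 (0.59, SE 0.17, adjusted p = 0.021), and its basal readings of 74.9, 62.6, 58.6 and 58.6 were all below the lowest apical reading of 80.2.

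Gabrb2, a beta subunit, read 16.5, 12.5, 13.6 and 12.2 at the apex, 18.4, 18.5, 12.4 and 16.3 for the middle turn, and 13.6, 12.1, 13.5 and 12.9 at the base, so that the turns overlapped. The intervals were -0.23 to 0.35 for apex against base (limma adjusted p = 0.76), -0.55 to 0.04 for apex against middle turn (adjusted p = 0.21) and 0.03 to 0.61 for middle turn against base (adjusted p = 0.11). Its transmembrane probe 7 had means of 268 ± 18, 275 ± 21 and 284 ± 15. Of its 9 probes, 0 were called with limma in any comparison of turns, and for apex against base 0 had an unadjusted p under 0.05.

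**Figure D3:**
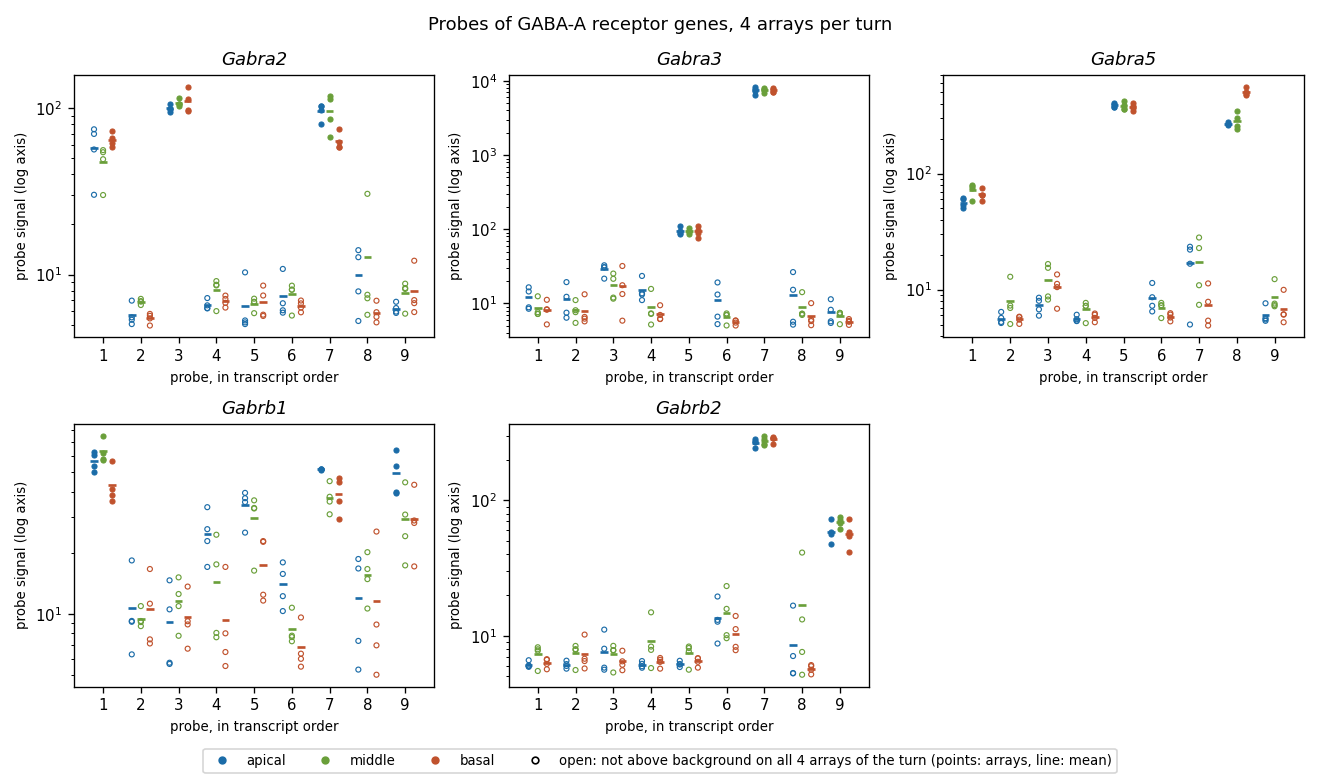
Signal of each probe of the 5 GABA-A genes, in order along the transcript, on a log axis that differs between panels. Points are arrays colored by turn, lines are means (n = 4), and open points mark turns where the probe was not above background on all 4 arrays. Most probes are open in every turn, and Gabra5 probe 8 is highest at the base.

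Probes of related subunits that lie at the same place could differ widely in detection. Gabra2 probe 5 and Gabra3 probe 5 share 51 of 60 bases (85%), and the former was above background on 0 arrays and the latter on 12.

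Of 11 other subunits of the GABA-A and rho families, 1 was called as higher at the apex than at the base, Gabre, and 0 as lower, against 17.6% and 21.6% of all genes. The median difference was -0.05. Gabrg3, a gamma subunit whose gene lies beside Gabra5, differed by -0.03 between apex and base, and Gabra5 by -0.02.

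Gabre, the epsilon subunit, which lies near Gabra3 on the X chromosome, had means of 46.5 ± 4.1, 38.1 ± 7.2 and 31.1 ± 4.3 (0.58, limma adjusted p = 0.0051). Gabrd, the delta subunit, was called between apex and middle turn alone, with means of 59.6 ± 7.3, 82.6 ± 9.3 and 63.9 ± 9.9 (-0.47 for apex minus middle turn, adjusted p = 0.04). The other 9 (Gabra4, Gabra6, Gabrg1, Gabrg3, Gabrp, Gabrq, Gabrr1, Gabrr2 and Gabrr3) were called in no comparison of turns with limma. Their apex minus base differences ran from -0.30 for Gabrp to 0.06 for Gabrr1. Gabrg1 and Gabrp had no probe above background on all 12 arrays.

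**Figure D4:**
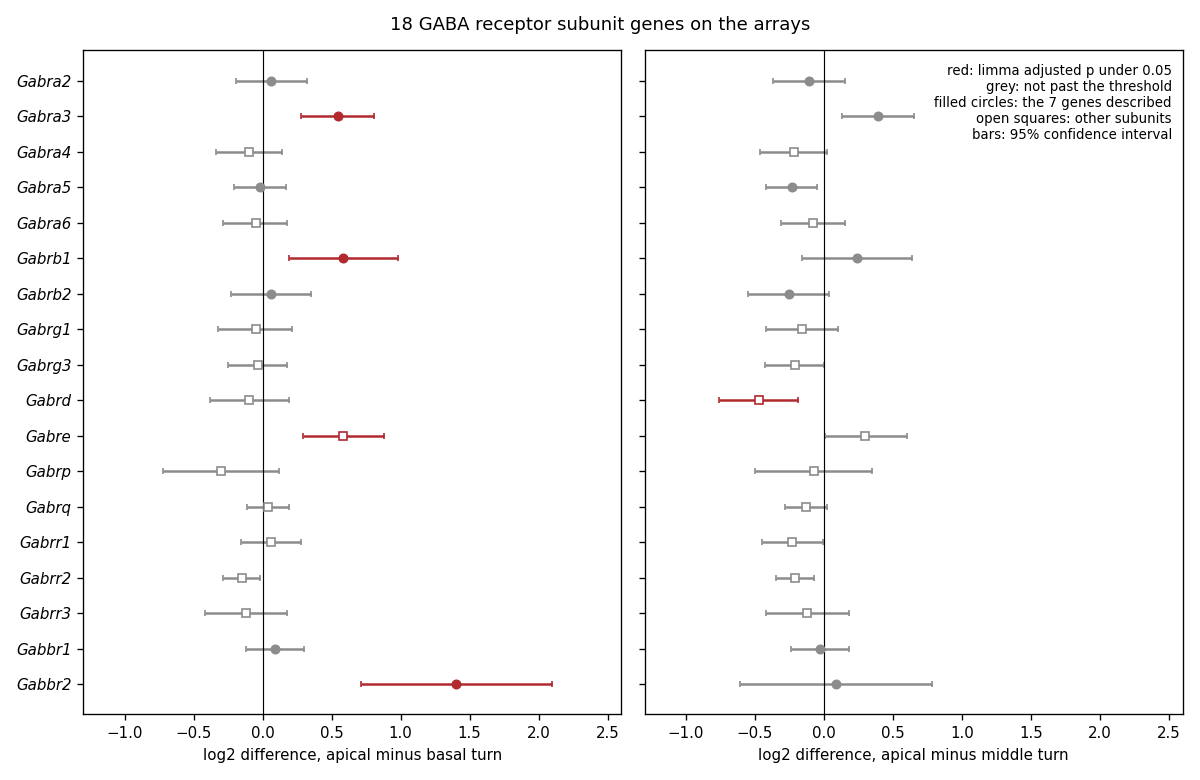
Log2 difference of each of 18 GABA receptor subunit genes, apex minus base (left) and apex minus middle turn (right), with 95% confidence intervals from limma. Red marks genes with an adjusted p under 0.05, filled circles the 7 genes described and open squares the other 11. Of the genes shown, Gabbr2 stands farthest to the right in apex minus base, at 1.40.

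Among the genes that work with the GABA-B receptor, the auxiliary Kctd subunits, which bind Gabbr2, and the Kcnj genes of the potassium channels that the receptor opens, 4 of 7 measured genes were higher at the apex than at the base and 0 lower. Over all genes, these shares were 17.6% and 21.6%. Kctd8 read between 492 and 630 at the apex, between 468 and 722 in the middle turn and between 174 and 384 at the base (1.29 between apex and base, limma adjusted p = 0.001). Kcnj3 had means of 77.7 ± 8.7, 68.4 ± 18 and 38.3 ± 8.5 (1.04, adjusted p = 0.0013), with 1 of 3 probes above background on all arrays. Kctd12 had means of 4460 ± 500, 3820 ± 240 and 3320 ± 280 (0.42, adjusted p = 0.0031). Kcnj9, with no probe above background on all arrays, differed by 0.77 (adjusted p = 0.024). Between the middle turn and the base 2 were called, Kctd8 (1.23, adjusted p = 0.0045) and Kcnj3 (0.83, adjusted p = 0.012), and between apex and middle turn 0 were called. Of all genes, 20.9% and 12% were called in these 2 comparisons. Kctd12b, Kcnj5 and Kcnj6 differed by -0.15, -0.04 and 0.04 between apex and base and were not called.

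Of 8 genes that make, pack, take up or break down GABA, 3 were higher at the apex than at the base and 0 lower. The shares over all genes were 17.6% and 21.6%. Gad1, which makes GABA from glutamate, had means of 38 ± 3.1, 43.5 ± 3.5 and 26.4 ± 1.4 (0.52, limma adjusted p = 0.00034), with 3 of 16 probes above background on all arrays. Abat, which breaks GABA down, differed by 0.28 (adjusted p = 0.0016), and the transporter Slc6a13 by 0.30 (adjusted p = 0.029).

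Over all genes, 17.6% were higher at the apex than at the base and 21.6% lower. Of 13 genes for anchoring and transport of receptors, 4 were higher and 4 lower. Those higher were Gphn, the scaffold of inhibitory synapses (0.21, limma adjusted p = 0.015), the adhesion protein Nlgn2 (0.44, adjusted p = 0.00039), Plcl1 (0.74, adjusted p = 0.0015) and Plcl2 (0.40, adjusted p = 0.00082). Those lower were Clptm1 (-0.40, adjusted p = 0.00017), Trak2 (-0.37, adjusted p = 0.0018) and the autophagy relatives Gabarap (-0.42, adjusted p = 0.00036) and Gabarapl2 (-0.37, adjusted p = 0.00018). Of the 2 chloride transporters that set the direction of current through GABA-A receptors, Slc12a2 was lower at the apex (-0.52, adjusted p = 8.9e-05) and Slc12a5 was not called (-0.05, adjusted p = 0.62). Slc12a2 is also a chloride transporter of the stria vascularis.

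In all, 41 related genes other than the 7 were examined, and 12 were higher and 5 lower at the apex than at the base, against 17.6% and 21.6% of all genes. Between apex and middle turn 0 were higher and 5 lower, against 4.42% and 7.59%, and between middle turn and base 8 were higher and 2 lower, against 11.7% and 9.21%. The split of 12 and 5 was 10 and 11 with quantile normalization or scaling to the median. With scaling to the spike-in probes it was 2 and 27, and the median of all genes moved to -0.52 between apex and base. The split of all genes moved the same way. With scaling to the 75th percentile, 45% of the 7645 genes called between apex and base were higher at the apex. This share was 36.8% of 7910 with quantile normalization, 26.5% of 8557 with scaling to the median and 5.13% of 15109 with spike-in scaling.

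Markers of several cell types moved with the turns as well. Over all genes, 17.6% were called as higher at the apex than at the base and 21.6% as lower. Of 12 genes of spiral ganglion neurons, 9 were higher at the apex than at the base and 1, Prph, was lower, with a median difference of 1.35. Their summed signal was between 31900 and 41550 at the apex and between 29650 and 52010 in the middle turn. At the base it was 13760, 7155, 28420 and 10550 on samples 1 to 4. The basal samples stood in the same order for Gabbr2, at 105, 60.7, 181 and 67.6, with sample 3 highest and sample 2 lowest, and middle sample 1 was the highest of all 12 arrays in both. Gabbr1 had the same order at the base, at 393, 349, 450 and 356, and was also highest on middle sample 1, at 489. All 10 hair cell genes were higher at the apex than at the base (median 1.72), with sums of 13520 to 17950, 10250 to 11970 and 2934 to 5365. All 7 measured Schwann cell genes were higher (median 0.75), with sums of 13450 to 15050, 14230 to 17190 and 6596 to 12690. The Schwann cell sums had the same order at the base as the neuron sums, at 9047, 6596, 12690 and 7894. They too were highest on middle sample 1, at 17190, so this basal order was not particular to the neuron markers. At the apex the neuron sums were 41550, 31900, 40420 and 36260 on samples 1 to 4, in the same order as Gabbr2. The Schwann cell sums there, 15050, 13850, 13450 and 13970, had another order, and so had Gabbr1. In the middle turn the order of Gabbr2 was that of neither sum. Of 7 stria vascularis genes 6 were lower at the apex, all 4 fibrocyte and all 4 macrophage genes were lower, 1 of 6 bone genes was lower, and 0 of 3 blood genes were called with limma. The part of these cell types in the Gabbr2 difference was not tested.

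**Figure D5:**
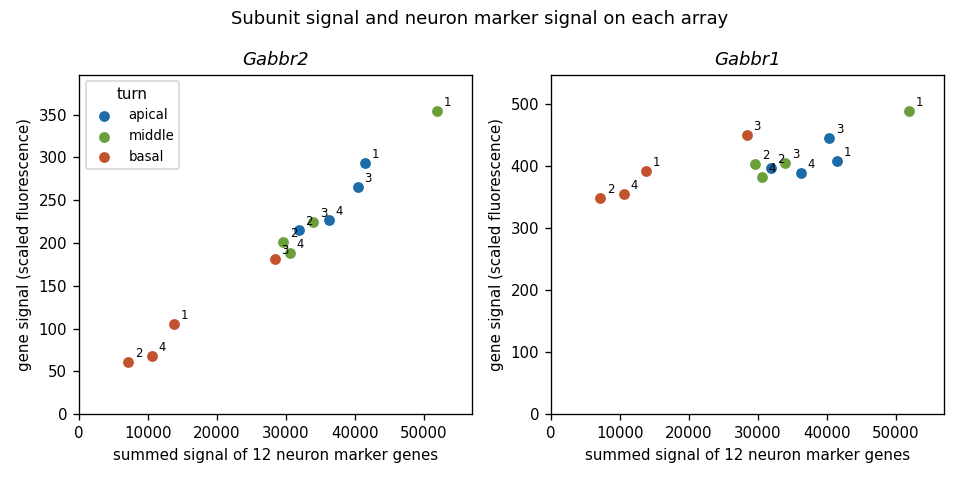
Signal of Gabbr2 and Gabbr1 on each array (vertical axis, scaled fluorescence) against the summed signal of 12 spiral ganglion neuron markers (horizontal axis, scaled fluorescence). Points are arrays, colored by turn and numbered by sample. Both genes are highest on middle sample 1 and lowest on basal sample 2, as the neuron markers are and as the Schwann cell markers, not drawn, are. Gabbr2 runs from 60.7 to 354 and Gabbr1 from 349 to 489.

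The genes whose pattern was most like that of Gabbr2 over the 12 arrays, among 16010 genes with a probe above background on all arrays, were Isl1, Scn1a and Mast1, each with a Pearson correlation of log2 signal of 0.996. Those most like Gabbr1 were Ttc13 (0.935), Tcerg1l (0.935) and Gpr19 (0.929). For Gabrb1 they were Plekha7 (0.926), Rptor (0.923) and Cpeb3 (0.923), and for Gabra3 Krtap9-1 (0.945), Tchp (0.937) and Mdm4 (0.907). For Gabra2 they were Slc25a46 (0.966), Slc28a3 (0.901) and Pde11a (0.899), for Gabra5 Ube2v2 (0.92), Cyp2c37 (0.903) and Ret (0.903), and for Gabrb2 Kbtbd12 (0.96), Tpbpa (0.951) and Msh4 (0.949). Several of these genes were dim themselves. Probes above background on all arrays were 1 of 6 for Kbtbd12, 1 of 3 for Tpbpa and 1 of 20 for Msh4. They were 1 of 19 for Pde11a and 2 of 8 for Cyp2c37. The part of array background in the correlations between dim genes was not tested. All of these are the highest of many correlations over arrays that share slides and tissue makeup, and they are given as a description.

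The Gabbr2 difference kept its direction and its call in all 27 other ways of processing the arrays, both for apex against base (0.83 to 1.72, limma adjusted p 0.00035 to 0.016) and for middle turn against base (0.80 to 1.63, adjusted p 0.0011 to 0.045), the rule with the F test and 2-fold included. The study's own test over the 3 turns, which is not limma's, had an adjusted p of 0.018 on these values. With scaling to the spike-in probes it was 0.91 between apex and base, which is 1.44 above the median of all genes under that scaling, while Gabra3 (0.06, adjusted p = 0.7) and Gabrb1 (0.09, adjusted p = 0.66) were no longer called and lay 0.58 and 0.62 above that median. Gabra2 (-0.42), Gabra5 (-0.51) and Gabrb2 (-0.42) were then called as lower at the apex, as Gabbr1 was, and lay 0.1, 0.01 and 0.1 above the median. Among the related genes, Kctd8 and Kcnj3 were called for apex against base in all 27 as well, with values of 0.8 and 0.31 at the lowest. Gad1 was called in 22, Gabre in 21 and Kctd12 in 24, and their values reached -0.04, 0.09 and -0.07 at the lowest, in settings where they were not called.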

How the data were processed

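The deposited files hold spot fluorescence intensity, extracted by the authors from scans with Agilent Feature Extraction 10.7.3.1, with background subtracted and detrended and no normalization between arrays. The intensity columns used were the processed signal, the mean signal and the local background. The series value table, also deposited as intensity, equals the processed signal. In R 4.3.3, with limma 3.58.1 and the package data.table (version 1.17.8), 7914 control spots of 180880 and 622 flagged spots were left out, which left 165865 probes. Signals were scaled to each array's 75th percentile and log2 transformed, and repeated spots, then probes sharing a gene name, were averaged. No filter and no pseudocount was used. The median SD of a gene within a turn was 0.106 to 0.126 log2 units. Contrasts used limma's lmFit and eBayes with turn as the term. In simulated data the gene test for apex against base recovered 83 of 100 genes changed 2-fold and 96 of 100 changed 4-fold, with 6 false calls among 19505, and the probe test 66 and 89 of 100, with 6 false calls among 165865. Each simulation changed 200 genes or probes, with independent normal noise and no slide effect. In the arrays themselves 39.2% of genes were called between apex and base, so these rates need not hold there. The 7 genes, the other subunits examined and the related genes called between apex and base were named, with the 3 most alike genes and the probe of highest mean signal for each of the 7. The members and gene lists were chosen with earlier results of these data known. Alternatives were other scalings, a background correction (normexp), an added constant of 16, other probe summaries, flagged spots kept, the series value table, the 2 turns alone, limma's trend and robust options, 2-fold rules, a replicate block and each array left out. The slide as a block could not be fitted, since each turn had its own slide. Map2 was matched through its older symbol Mtap2. Kctd16 and Sox10 had no match. Some related genes are not reported here.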

Additional observations from a re-analysis of the deposited data

How the results depend on the processing

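The counts called were 3, 0 and 1 of the 7 genes and 17, 5 and 10 of the 41 related genes for apex against base, apex against middle turn and middle turn against base. Of all genes, 39.2%, 12% and 20.9% were called. Quantile normalization gave 1 of the 7 and 3 of the 41 for apex against middle turn, and scaling to the median gave 1 and 9. Of all 19505 genes, these settings called 2021 and 3549 there. Scaling to the spike-in probes gave 5 of the 7 and 29 of the 41 for apex against base and 3 and 21 for apex against middle turn. Of all 19505 genes, 15109 and 7930 were called under it in these comparisons. Spike-in scaling moved the medians of all genes to -0.52, -0.28 and -0.23 in the 3 comparisons, and scaling to the median to -0.15, -0.12 and -0.03. Under spike-in scaling Gabra2 (-0.42), Gabrb2 (-0.42) and Gabbr1 (-0.40) turned to lower in the apex than in the base, but lay 0.1, 0.1 and 0.13 above that median. The normexp background correction gave 1 of the 7 for apex against base, with Gabra3 at 0.11 and Gabrb1 at 0.10 (limma adjusted p = 0.28 and 0.3). The log2 of the mean probe signal gave 2 of the 7 for middle turn against base and turned Gabra3 to -0.01 for apex against base and Gabra5 to -0.30 for middle turn against base. Only probes well above background also gave 2, with Gabra5 at -0.22. The median of probes gave 2 of the 41 for apex against middle turn. Of all 19505 genes, normexp called 7128 for apex against base and the median of probes 1567 for apex against middle turn. For middle turn against base, the log2 of the mean called 4433, and only bright probes 4593 of 16507. The F test and the methods' ANOVA, each with 2-fold, gave 1 of the 7 and 2 of the 41 for apex against base, 0 of the 41 for apex against middle turn and 1 of the 41 for middle turn against base. Of all genes, the F test rule called 856, 85 and 519, and the ANOVA rule 833, 78 and 502. Gabrb1 was not called with quantile normalization (0.37, adjusted p = 0.1). Where the cause of such a change is not part of the setting, it was not tested. Some differences that were not called changed sign, and they are not listed.

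Leaving out each array in turn gave 2 to 3, 0 to 1 and 1 to 2 of the 7 genes, and 15 to 18, 2 to 8 and 6 to 14 of the 41. Of all 19505 genes, these fits called 6504 to 7676, 965 to 3539 and 2659 to 4752. For apex against middle turn the 41 gave 2 without apical sample 2 or middle sample 4, 3 without apical sample 1, apical sample 3 or middle sample 2, and 8 without middle sample 3, and the 7 gave 1 without apical sample 2 or middle sample 3. For middle turn against base the 7 gave 2 without middle sample 3 or basal sample 3, and the 41 gave 6 without middle sample 1. With the sample number as a replicate block, the counts were 2 of the 7 and 8 of the 41 for apex against middle turn and 3 of the 7 for middle turn against base. Of all 19505 genes, 3319 and 5063 were called with the block in these comparisons. The genes of the 7 that the block added were Gabra3 (limma adjusted p = 0.049) and Gabra5 (0.036) for apex against middle turn and Gabra5 (0.037) and Gabrb1 (0.025) for middle turn against base. The labels do not say that the numbers pair the samples. Same-numbered samples had a mean correlation of deviations of 0.0948 (-0.037 to 0.227, above 0.1 in 6 of 12 pairs), and 8 of 12 arrays correlated best with their own number. The 36 pairs with different numbers had a mean of -0.0313 (-0.261 to 0.254). For dim probes, signal over background limits what can be read, and 28 of the 45 GABA-A probes of the 5 genes were above background on no array.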
